A study of Mus musculus with 4 samples.

Results

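Genes of ribosome biogenesis were followed through a short culture of mouse leukaemic cells with 4OHT. The list named 50 genes by symbol, from RNA polymerase I to the last processing steps of both ribosomal subunits. Of these, 49 had a row among the 23240 gene rows of the table, and 48 had a mean of at least 1 RPKM over the libraries and were tested. RPKM scales reads by a gene's length and by the mapped reads of its library, so levels can be compared between genes. Imp3, a U3-associated protein of the small subunit, was listed at 0 in all 4 libraries and was not tested, and Noc2l was not analysed here. Every tested member had at least 4.34 RPKM in every library, so none passed the filter on low values through 1 group alone.

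There were 2 libraries of cells cultured with 200 nM 4OHT and 2 of cells cultured with the same volume of ethanol (EtOH), both for 22 h. 4OHT, or 4-hydroxytamoxifen, is a tamoxifen metabolite used to activate proteins joined to a modified oestrogen receptor. Its target in these cells is not stated in the labels. Each treatment had 1 library from Runx1 delta/delta cells (replicate 1) and 1 from Runx1 delta/+ cells (replicate 2), on a B6 background. All 4 came from bone marrow of mice with an acute myeloid leukaemia labelled RUNX1-FLT3ITD, in the EtOH libraries as in the 4OHT libraries. FLT3-ITD is a duplication that leaves the receptor FLT3 active. Cells were kept in serum-free medium with FLT3L, SCF, IL3 and IL11 and had been sorted for GFP and BFP, with CD11b and Gr1 absent. Genotype and replicate number are the same thing in these data, and the labels do not give the number of mice. The p-values therefore rest on these 4 samples and on a spread pooled over genes, and do not measure the spread between mice.

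Depth was 36.7 and 39.4 M mapped reads in the 4OHT libraries and 34.6 and 33.7 M in the EtOH libraries, in the order Runx1 delta/delta and Runx1 delta/+. Each tested member held at least 373 reads in every library, so counting error was small beside the differences reported. Runx1 itself had 380 and 328 RPKM with 4OHT, against 568 and 555 RPKM with EtOH, in the same order of genotypes; a value per gene cannot show which exons are deleted. Flt3 had 16.8 and 39.7 RPKM with 4OHT, against 12.6 and 46.3 RPKM with EtOH. Neutrophil and monocyte markers summed to 58.7 and 26.1 RPKM with 4OHT, against 49.9 and 23.9 RPKM with EtOH, and Mpo and Elane were at no more than 0.556 and 0.484 RPKM in any library. S100a8 made up the largest share of these sums, with 29.7 and 9.39 RPKM with 4OHT, against 30.5 and 9.46 RPKM with EtOH. Red cell genes were abundant, and 21 of 22 tested erythroid marker genes fell with 4OHT, where 10.2% of all tested genes fell. Their summed RPKM was 5810 and 4100 in the 4OHT libraries, against 66700 and 36300 in the EtOH libraries, which was 1.27% and 0.998%, against 13.6% and 8.53%, of all RPKM. Megakaryocyte markers fell for 7 of 8 tested, with summed RPKM of 187 and 115 with 4OHT, against 441 and 434 with EtOH. Mast cell markers rose for 3 of 7 tested, Cpa3, Prss34 and Ms4a2, and the list summed to 291 and 92.9 with 4OHT, against 192 and 198 with EtOH. Gata2, which was not called, was the largest part of each sum, with 145 and 63.5 RPKM with 4OHT, against 180 and 182 RPKM with EtOH. Lymphoid markers summed to 1.1 and 1.07 RPKM with 4OHT, against 2.74 and 0.698 RPKM with EtOH, most of it Lck; Ms4a1, Pax5, Ebf1 and Cd3e were listed at 0 throughout. In bulk samples, fewer cells of a type and less RNA per cell cannot be told apart.

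Ribosomes are built in the nucleolus. RNA polymerase I transcribes a long precursor that holds the 18S, 5.8S and 28S rRNAs, small nucleolar ribonucleoproteins (snoRNPs) guide its modification and folding, and large sets of helicases, GTPases and scaffold proteins cut it and assemble it with ribosomal proteins into the small and the large subunit. The supply of these factors is tied to growth and to the transcription factor MYC, and many of them are abundant in dividing blood progenitors.

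Ribosome biogenesis genes were higher with 4OHT almost throughout. Of the 48 tested members, 42 rose and 0 fell (limma with genotype as a term, Benjamini-Hochberg adjusted p under 0.05 over all 9595 tested genes), where 22.2% of all tested genes rose and 10.2% fell. At an unadjusted p under 0.05, 45 members were higher and 0 lower, where 3015 of all 9595 tested genes were higher and 1372 lower. The members' median log2 change, on log2(RPKM + 1), was 0.845, against 0.163 for all tested genes. Both 4OHT libraries lay above both EtOH libraries for 43 of the 48, where this held for 38.4% of all tested genes; the groups overlapped for Ubtf, Taf1d, Nop58, Npm1 and Ddx10. Together the 49 genes in the table made up 0.746% and 1.01% of all RPKM in the 4OHT libraries, against 0.366% and 0.613% in the EtOH libraries.

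**Figure D1:**
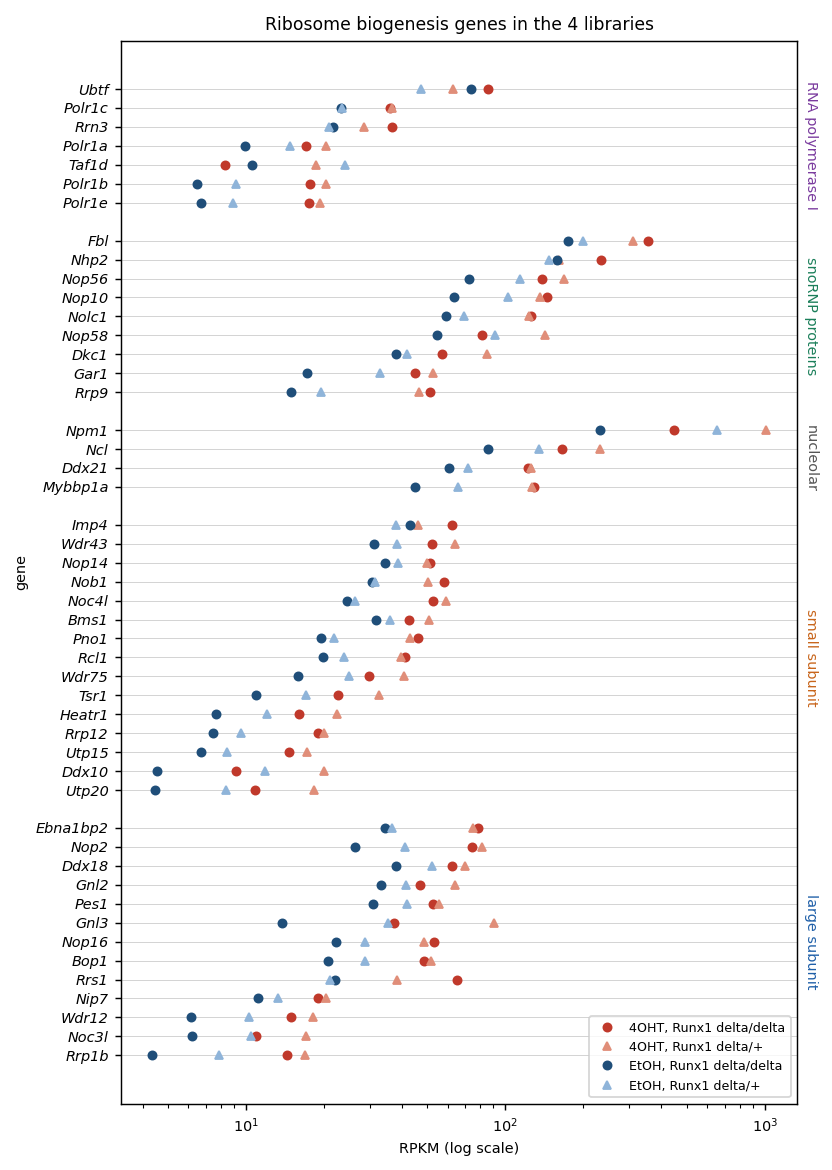
RPKM (log axis) of each tested member in the 4 libraries, by role and mean level; red symbols are 4OHT, blue symbols EtOH, circles Runx1 delta/delta and triangles Runx1 delta/+. For most genes both red symbols lie right of both blue ones. The exceptions are Ubtf, Taf1d, Nop58, Npm1 and Ddx10, and Taf1d alone has red left of blue in each genotype.

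The number of calls depends on the model and on the scaling. Without the genotype term 1 member passed, Rrp9, while 1.22% of all tested genes rose and 1.21% fell. With single libraries left out, which also leaves out that term, 1 member, Rrs1, rose without 4OHT replicate 2 (1.31% of all tested genes rose and 1.24% fell). The other sets of 3 libraries called 0 members; of all tested genes 0.719% rose and 1.43% fell without 4OHT replicate 1, 0% and 0.0313% without EtOH replicate 1, and 1.27% and 1.17% without EtOH replicate 2. With median-ratio scaling, which sets the median ratio between libraries to 1, 34 members rose and 1 fell, where 15% of all tested genes rose and 17.4% fell; the median of all genes was then -0.036 and that of the members 0.626. RPKM rescaled without the erythroid genes left 36 members higher, where 17.3% of all tested genes rose and 11.4% fell. With a trend in GC content and length removed, 32 members rose and 0 fell, where 12.2% of all tested genes rose and 13.9% fell.

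**Figure D2:**
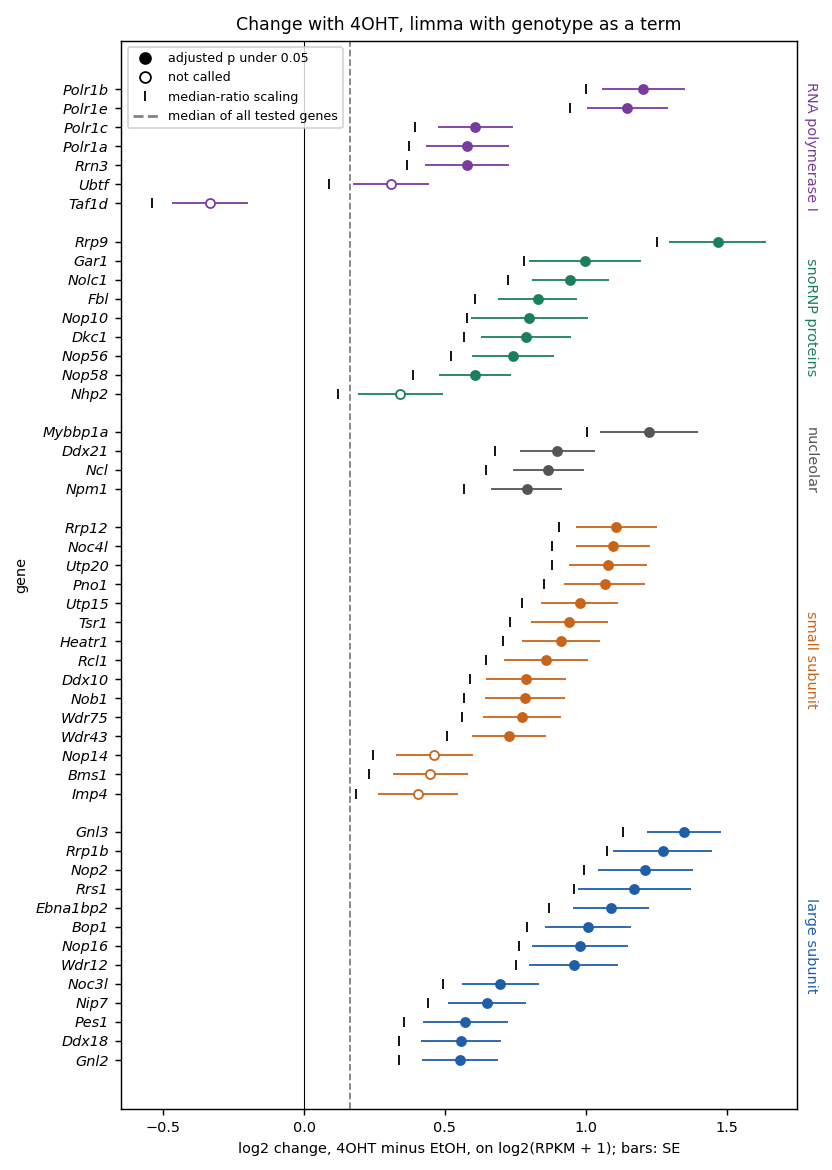
Log2 change of each tested member, 4OHT minus EtOH, with its standard error; filled points passed at an adjusted p under 0.05, open points did not, and vertical ticks give the change with median-ratio scaling. The 42 filled points all lie right of the dashed line at 0.163, the median of all tested genes, and the ticks lie left of the points throughout.

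RNA polymerase I genes gave the widest range. Of 7 members 5 rose and 0 fell, with a median log2 change of 0.579. Polr1b, the second largest subunit of the enzyme, had 17.7 and 20.4 RPKM with 4OHT, against 6.45 and 9.13 RPKM with EtOH, in Runx1 delta/delta and Runx1 delta/+ in that order, as in all values that follow. The groups did not overlap, and the rise was 1.20 on the log2 scale (SE 0.15, limma adjusted p = 0.0062). Polr1e, a subunit that helps the enzyme to initiate, had 17.5 and 19.3 RPKM with 4OHT, against 6.69 and 8.93 RPKM with EtOH (log2 change 1.15, SE 0.14, limma adjusted p = 0.00651). Polr1c, which RNA polymerases I and III share, had 36.0 and 36.4 RPKM with 4OHT, against 23.3 and 23.6 RPKM with EtOH, so the genotypes were alike within each treatment (log2 change 0.61, SE 0.13, limma adjusted p = 0.0235). The catalytic subunit Polr1a and the initiation factor Rrn3, which ties the polymerase to its promoter, each rose by 0.58 on the log2 scale. Polr1a, Polr1c and Rrn3 no longer passed with median-ratio scaling, with adjusted p-values of 0.102, 0.0704 and 0.0993.

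Ubtf and Taf1d, both of which act at the rDNA promoter, did not pass. Ubtf, the HMG-box protein that covers active rDNA, had 85.6 and 62.8 RPKM with 4OHT, against 73.8 and 47.1 RPKM with EtOH, and did not pass (log2 change 0.31, SE 0.14, limma adjusted p = 0.136). Its levels overlapped between the treatments, and Runx1 delta/delta stood higher than Runx1 delta/+ in each. Taf1d, a subunit of the selectivity factor SL1 and a host gene of intronic snoRNAs, had 8.29 and 18.7 RPKM with 4OHT, against 10.6 and 24.0 RPKM with EtOH. It was the single tested member that was lower with 4OHT in both genotypes, without a call (log2 change -0.33, SE 0.14, limma adjusted p = 0.114), and it passed as lower with median-ratio scaling (log2 change -0.54, limma adjusted p = 0.0269).

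Proteins of the snoRNPs rose in 8 of 9 cases, with a median log2 change of 0.8. Box C/D particles carry the rRNA 2'-O-methyltransferase fibrillarin, and box H/ACA particles carry the pseudouridine synthase dyskerin. Rrp9, a protein specific to the U3 particle that starts small subunit processing, had the largest change of all members. It had 51.3 and 46.6 RPKM with 4OHT, against 14.9 and 19.5 RPKM with EtOH, without overlap (log2 change 1.47, SE 0.17, limma adjusted p = 0.00587). The core box C/D genes are Fbl, Nop56 and Nop58. Fbl, which encodes fibrillarin, rose by 0.83, and Nop56 and Nop58, the paired scaffold proteins, rose by 0.74 and 0.61 on the log2 scale. The rise of Nop58 no longer passed with median-ratio scaling (limma adjusted p = 0.0633), nor that of Nop56 with the GC and length trend removed (limma adjusted p = 0.0501).

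The H/ACA core genes did not all pass, and differences between them were not tested. Gar1, which helps to release the modified rRNA, had 44.9 and 52.6 RPKM with 4OHT, against 17.2 and 33.0 RPKM with EtOH (log2 change 0.998, SE 0.20, limma adjusted p = 0.0179). Dkc1, the dyskerin gene, and Nop10, the smallest core protein, rose by 0.79 and 0.80 on the log2 scale. Neither passed with the GC and length trend removed (limma adjusted p = 0.0544 for Dkc1 and 0.0699 for Nop10). Nhp2, the remaining core protein, had 234 and 161 RPKM with 4OHT, against 158 and 148 RPKM with EtOH, and did not pass (log2 change 0.34, SE 0.15, limma adjusted p = 0.141). Almost all of its difference lay in Runx1 delta/delta, 1.48-fold there and 1.09-fold in Runx1 delta/+. Nolc1, a nucleolar chaperone of both kinds of snoRNP, had 125 and 123 RPKM with 4OHT, against 59.2 and 69.2 RPKM with EtOH (log2 change 0.94, SE 0.14, limma adjusted p = 0.00846).

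All 4 nucleolar proteins with several roles rose, with a median log2 change of 0.883. Npm1, nucleophosmin, a histone and ribosome chaperone that is often mutated in human acute myeloid leukaemia, was the most abundant member. It had 448 and 1014 RPKM with 4OHT, against 231 and 656 RPKM with EtOH (log2 change 0.79, SE 0.13, limma adjusted p = 0.0109). Within each genotype the 4OHT library was higher, but the treatments overlapped across genotypes, and Runx1 delta/+ stood far above Runx1 delta/delta. Npm1 has processed pseudogenes, so its reads could be split between copies.

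Ncl, nucleolin, an RNA-binding protein of the dense nucleolus, had 166 and 233 RPKM with 4OHT, against 85.4 and 135 RPKM with EtOH (log2 change 0.87, SE 0.13, limma adjusted p = 0.00847). Mybbp1a, a nucleolar protein that binds MYB and takes part in rRNA processing, had 129 and 127 RPKM with 4OHT, against 44.9 and 65.5 RPKM with EtOH (log2 change 1.22, SE 0.17, limma adjusted p = 0.0081). Its levels were close between the genotypes with 4OHT and apart with EtOH. Ddx21, an RNA helicase that acts on rDNA transcription and on snoRNPs, had 122 and 125 RPKM with 4OHT, against 60.6 and 71.5 RPKM with EtOH (log2 change 0.90, SE 0.13, limma adjusted p = 0.00888).

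Of the small subunit genes, 12 of 15 tested rose and 0 fell, with a median log2 change of 0.86. The 12 that rose also rose with median-ratio scaling. Heatr1, Utp15, Wdr43 and Wdr75 are early scaffold proteins of the small subunit processome that load onto the nascent precursor. These 4 genes rose by 0.91, 0.98, 0.73 and 0.78 on the log2 scale. Utp20, a giant scaffold protein and the least abundant member by mean, had 10.8 and 18.3 RPKM with 4OHT, against 4.44 and 8.38 RPKM with EtOH (log2 change 1.08, SE 0.14, limma adjusted p = 0.00664). Noc4l, whose yeast homologue works with Nop14, had 52.5 and 58.8 RPKM with 4OHT, against 24.6 and 26.4 RPKM with EtOH, and the groups lay far apart (log2 change 1.10, SE 0.13, limma adjusted p = 0.0062). Nop14 itself had 51.1 and 50.1 RPKM with 4OHT, against 34.4 and 38.6 RPKM with EtOH, and did not pass (log2 change 0.46, SE 0.14, limma adjusted p = 0.0535). Its limma adjusted p was 0.219 with median-ratio scaling.

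The remaining tested small subunit genes were also higher, Bms1 and Imp4 without a call. Rrp12, which accompanies the precursor out of the nucleus, had 18.9 and 19.9 RPKM with 4OHT, against 7.49 and 9.54 RPKM with EtOH (log2 change 1.11, SE 0.14, limma adjusted p = 0.00679). Nob1, the nuclease that makes the 3' end of 18S rRNA, and its partner Pno1 rose by 0.78 and 1.07 on the log2 scale. Tsr1, a GTPase-like factor of late cytoplasmic particles, rose by 0.94, the helicase gene Ddx10 by 0.79 and Rcl1, the partner of the GTPase Bms1, by 0.86. Bms1 did not pass (log2 change 0.45, SE 0.13, limma adjusted p = 0.0533). Imp4, a partner of the U3 particle, changed least in this group, with 62.5 and 46.1 RPKM with 4OHT, against 43.1 and 37.8 RPKM with EtOH (log2 change 0.40, SE 0.14, limma adjusted p = 0.08).

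Large subunit genes rose in all 13 tested cases, with a median log2 change of 0.98. Gnl3, nucleostemin, a nucleolar GTPase of stem and dividing cells, had 37.1 and 90.6 RPKM with 4OHT, against 13.8 and 35.3 RPKM with EtOH (log2 change 1.35, SE 0.13, limma adjusted p = 0.00416). It rose by nearly the same factor in the genotypes, 2.69-fold and 2.56-fold, from different levels. Rrp1b, a nucleolar protein that targets protein phosphatase 1, had 14.4 and 16.9 RPKM with 4OHT, against 4.34 and 7.84 RPKM with EtOH (log2 change 1.27, SE 0.18, limma adjusted p = 0.00753). Nop2, an rRNA cytosine methyltransferase, had 74.1 and 81.0 RPKM with 4OHT, against 26.3 and 41.1 RPKM with EtOH (log2 change 1.21, SE 0.17, limma adjusted p = 0.00778). The groups did not overlap for Rrp1b or Nop2.

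Pes1, Bop1 and Wdr12 form the PeBoW complex, which is needed to make the 5.8S and 28S rRNAs, and rose by 0.57, 1.01 and 0.96 on the log2 scale. Rrs1, which brings the 5S particle into the large subunit, rose by 1.17, Ebna1bp2 by 1.09 and Nop16 by 0.98. Gnl2, a GTPase of the nuclear particle, changed least, with 46.8 and 64.0 RPKM with 4OHT, against 33.1 and 41.2 RPKM with EtOH (log2 change 0.55, SE 0.13, limma adjusted p = 0.0313). The helicase gene Ddx18 rose by 0.56, Nip7 by 0.65 and Noc3l by 0.70. With median-ratio scaling 9 of the 13 rose; Gnl2, Pes1, Ddx18 and Nip7 no longer passed, with adjusted p-values of 0.111, 0.104, 0.107 and 0.0554.

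The rise was present in each genotype and, on RPKM as deposited, was larger in Runx1 delta/delta for most members. The ratio of 4OHT to EtOH was above 1 for 47 of the 48 members in Runx1 delta/delta and for the same number in Runx1 delta/+. Of all 9595 tested genes, 6019 had a ratio above 1 for Runx1 delta/delta, and 6243 had one for Runx1 delta/+. Between the genotypes 0 members moved in opposite directions, where 18.7% of all tested genes did. The members' ratio ran from 0.783-fold to 3.45-fold in Runx1 delta/delta and from 0.776-fold to 2.56-fold in Runx1 delta/+. In these genotypes 26 and 11 members reached 2-fold on RPKM as deposited. The share of all tested genes that did so was not counted, so these counts show nothing particular to the members. On the same values, the 10 members that reached 2-fold in both were Polr1b, Polr1e, Rrp9, Utp15, Utp20, Noc4l, Rrp12, Gnl3, Rrp1b and Ebna1bp2. The members' median log2 ratio was 0.983 for Runx1 delta/delta against 0.719 for Runx1 delta/+, while the medians over all tested genes were 0.169 and 0.15.

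For 41 of the 48 members the log2 ratio was larger in Runx1 delta/delta, against 54.4% of all tested genes. This split is on RPKM as deposited and was not counted with median-ratio scaling. The size factors of that scaling were 1.065 (4OHT) and 0.892 (EtOH) in Runx1 delta/delta, and 1.103 and 0.968 in Runx1 delta/+. It therefore lowers the ratios more in Runx1 delta/delta, and near-ties such as Polr1c (0.609 and 0.607) can change sides. Rrs1 was 2.96-fold higher in Runx1 delta/delta and 1.81-fold higher in Runx1 delta/+, and Nop10 was 2.30-fold and 1.33-fold higher. Dkc1 went the other way, at 1.50-fold in Runx1 delta/delta and 2.03-fold in Runx1 delta/+. With 1 library for each genotype and treatment, a test of the difference between the responses leaves 0 degrees of freedom, so it was not tested.

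**Figure D3:**
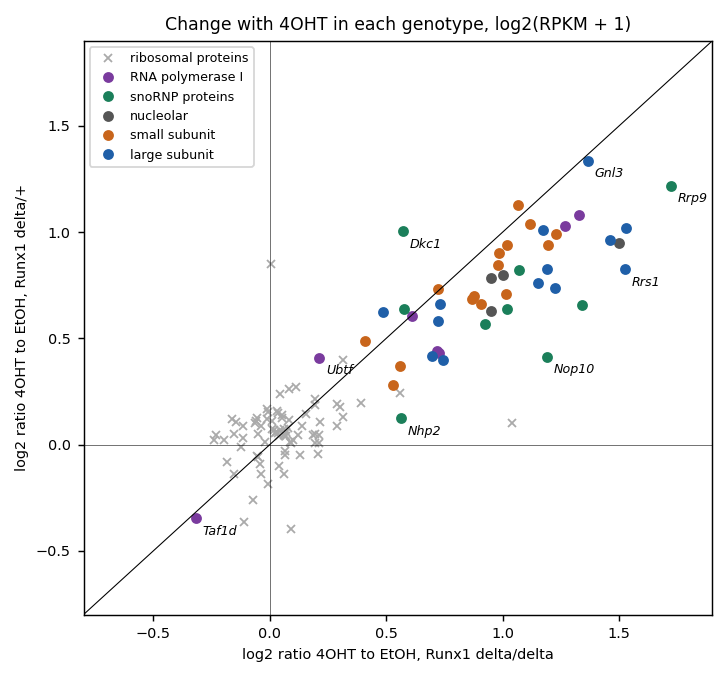
Log2 ratio of 4OHT to EtOH for Runx1 delta/delta (x axis) against that for Runx1 delta/+ (y axis) for each tested member, coloured by role, with 79 ribosomal protein genes as grey crosses; the line marks equal ratios. Of the 48 members, 41 lie below the line, and Taf1d alone lies below 0 on both axes.

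Between the genotypes, the members tended to lie lower in Runx1 delta/delta. Over both treatments 8 of the 48 members were called lower and 0 higher in Runx1 delta/delta than in Runx1 delta/+, where 6.91% of all tested genes were lower and 4.68% higher (limma, treatment as a term, adjusted p under 0.05). At an unadjusted p under 0.05, 17 members were lower and 1 higher, where 1772 of all 9595 tested genes were lower and 1342 higher. The called genes were Taf1d, Nop58, Ncl, Npm1, Utp20, Ddx10, Gnl3 and Noc3l. The median log2 difference was -0.265, against -0.033 for all tested genes; in single-term fits it was 0.27 without EtOH replicate 1 and 0.12 without 4OHT replicate 2. Each genotype is 1 replicate number, so genotype, mouse and culture cannot be told apart, and 0 of all 9595 genes were called without the treatment term (335 higher and 545 lower at an unadjusted p under 0.05). With no filter on low values 0 genes were called either (1622 higher and 2284 lower at an unadjusted p under 0.05).

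Npm1 was the furthest apart, with a log2 difference of -1.34 (SE 0.13, limma adjusted p = 0.0126). Its level of 448 RPKM in Runx1 delta/delta with 4OHT remained below the 656 RPKM of Runx1 delta/+ with EtOH. Gnl3 differed by -1.28 (SE 0.13, limma adjusted p = 0.015), nearly the same with 4OHT (-1.27) as with EtOH (-1.30). Ddx10 had 9.17 RPKM in Runx1 delta/delta and 19.9 RPKM in Runx1 delta/+ with 4OHT, and 4.54 and 11.9 RPKM with EtOH (log2 difference -1.13, SE 0.14, limma adjusted p = 0.0204). In the opposite direction stood Ubtf, Rrs1 and Nhp2, without a call, with log2 differences of 0.54, 0.41 and 0.32 and adjusted p-values of 0.0612, 0.224 and 0.212. Rrs1 had 65.1 RPKM in Runx1 delta/delta and 38.1 RPKM in Runx1 delta/+ with 4OHT, against 22.0 and 21.1 RPKM with EtOH. With median-ratio scaling Ubtf passed as higher in Runx1 delta/delta (adjusted p = 0.0247) and 8 members were lower, where 10.3% of all tested genes were higher and 8.45% lower. Removing the trend in GC and length left 0 members higher and 3 lower, where 1.55% of all tested genes were higher and 1.39% lower.

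The gap between genotypes was narrower in the 4OHT libraries. With 4OHT, 32 of 48 members were lower in Runx1 delta/delta, with a median log2 difference of -0.145, and with EtOH 43 were, with a median of -0.368. Over all tested genes the share lower in Runx1 delta/delta was 50.4% with 4OHT and 56.1% with EtOH. These values restate the larger ratios in Runx1 delta/delta and are no separate evidence.

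**Figure D4:**
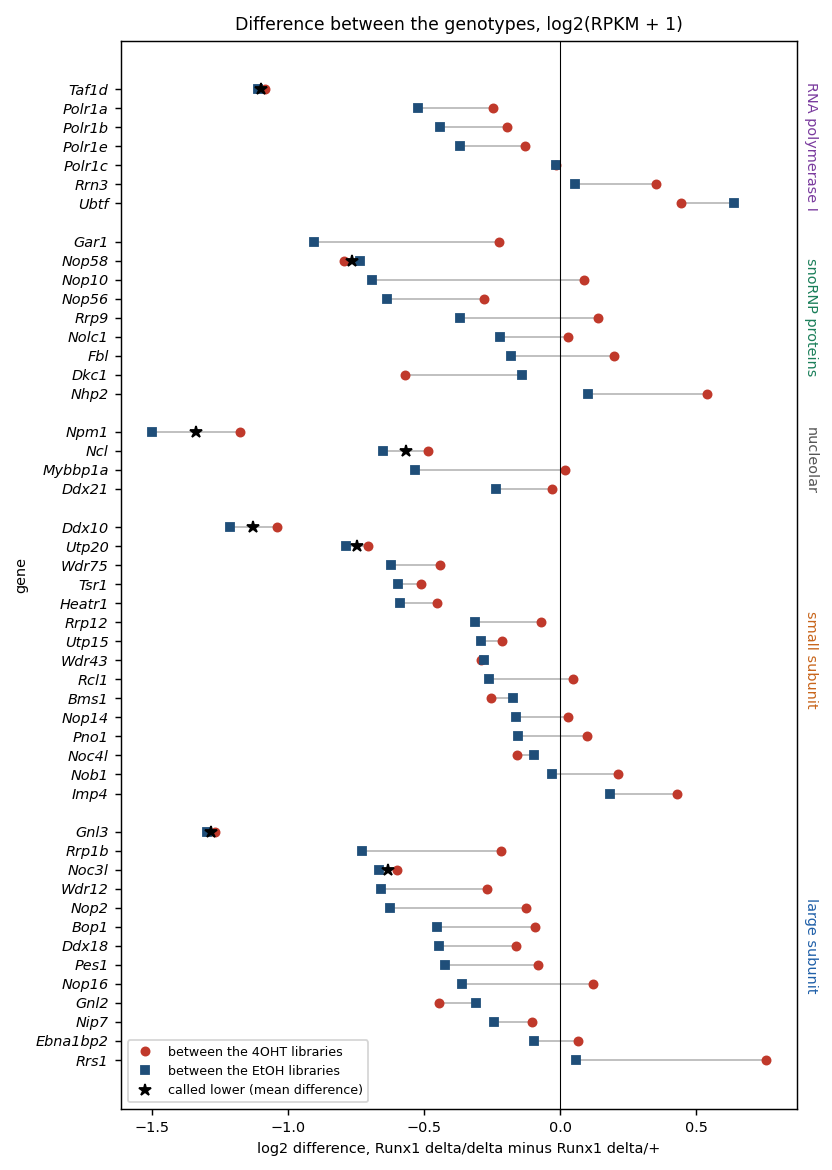
Log2 difference of each tested member, Runx1 delta/delta minus Runx1 delta/+, between the 4OHT libraries (red circles) and between the EtOH libraries (blue squares); black stars mark the mean difference of the 8 members called lower. Most red circles lie right of the blue squares, and those of Npm1, Gnl3, Ddx10 and Taf1d stay below -1.

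Other genes of the pathway rose as well. Of 94 further pathway genes tested, 59 rose and 0 fell, with a median log2 change of 0.616 (0 lower at an unadjusted p under 0.05). By role, 4 of 9 RNA polymerase I genes, 5 of 11 snoRNP genes, 23 of 35 small subunit genes and 27 of 39 large subunit genes rose. Among them Cd3eap, an RNA polymerase I subunit, rose by 1.14 on the log2 scale, and Tcof1, the nucleolar protein treacle, by 0.85. Nat10, the rRNA acetyltransferase, rose by 1.35 and Nol6 by 1.21, while the large subunit genes Rrp15, Nle1 and Mdn1 rose by 1.40, 1.16 and 1.26. Baz2a, which silences rDNA, had 19.2 and 21.0 RPKM with 4OHT, against 16.5 and 19.4 RPKM with EtOH, without a call (limma adjusted p = 0.407). Sbds, which acts on the finished large subunit in the cytoplasm, was not called (log2 change -0.21, limma adjusted p = 0.265) and passed as lower with median-ratio scaling (log2 change -0.43, adjusted p = 0.046). Of 15 genes of the exosome and its helpers, which trim rRNA ends, 6 rose and 0 fell, where 22.2% of all tested genes rose. The median of these 15 genes was 0.353. With median-ratio scaling 2 of the 15 rose, where 15% of all tested genes rose. With the GC and length trend removed 2 of the 15 rose, where 12.2% of all tested genes rose. Exosc1 rose by 1.15 and Exosc6 by 0.90, and Exosc10 was at -0.01.

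The proteins of the ribosome itself had a median change close to 0. Of 79 tested cytosolic ribosomal protein genes 1 rose, Rps12, and 0 fell, where 22.2% of all tested genes rose and 10.2% fell. At an unadjusted p under 0.05 in limma, 3 were higher and 0 lower. With median-ratio scaling 0 rose and 2 fell, where 15% of all tested genes rose and 17.4% fell. The median log2 change of the 79 was 0.054, and it became -0.168 with median-ratio scaling. These genes have many processed pseudogenes, so the value of each is uncertain. Myc had 196 and 103 RPKM with 4OHT, against 104 and 83.7 RPKM with EtOH, and did not pass (log2 change 0.61, SE 0.18, limma adjusted p = 0.0537). Its levels overlapped between the treatments, and its limma adjusted p was 0.109 with median-ratio scaling. Of 8 tested genes of the MYC and MAX network, 1 rose and 2 fell, where 22.2% of all tested genes rose and 10.2% fell. Mxd1 and Mxi1, which compete with MYC for its partner MAX, fell by 2.33 and 1.23 on the log2 scale, and Mlx rose by 0.78. Mnt, Mxd3 and Mxd4, which also bind MAX, were not called, with log2 changes of 0.46, -0.44 and 0.10. Mxd3 passed as lower with median-ratio scaling (limma adjusted p = 0.0445). Of 14 cell cycle genes 0 rose and 5 fell with 4OHT, Mki67 among them, where 22.2% of all tested genes rose and 10.2% fell. Whether the erythroid, cell cycle or MYC network changes bear on the members' rise was not tested.

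**Figure D5:**
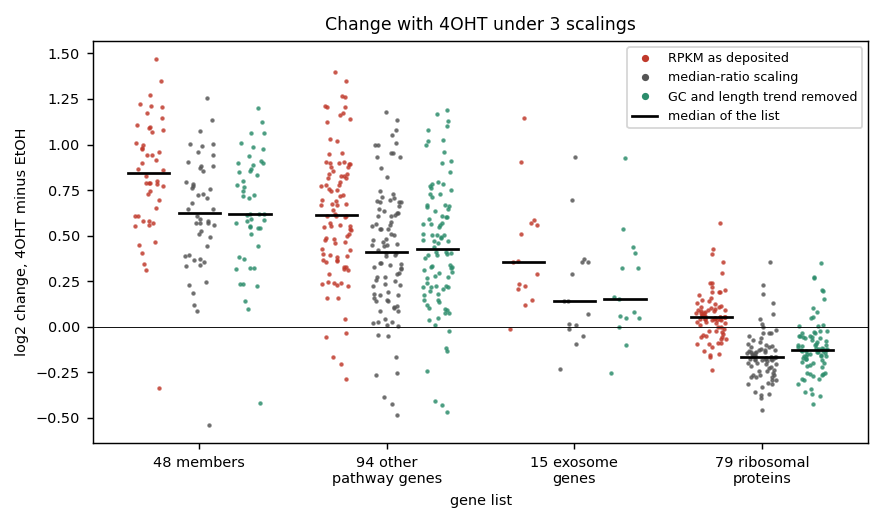
Log2 change, 4OHT minus EtOH, of each tested gene in 4 lists under 3 scalings, with black bars at the medians. The medians of the members are 0.845, 0.626 and 0.618, those of the other pathway genes 0.616, 0.412 and 0.425, those of the exosome 0.353, 0.139 and 0.150, and those of ribosomal proteins 0.054, -0.168 and -0.126.

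Promoter windows were examined because the members moved together. RefSeq windows on GRCm38.p6, 250 bases before to 50 bases after a gene's start, were matched by symbol for 42 of the 48 tested members. CACGTG, the E-box core that MYC and MAX bind, reads the same on both strands, and a gene with several windows counted where any held the motif. It was present in the windows of 9 of the 42 members (21.4%), 18 of 82 other pathway genes (22%), 6 of 57 ribosomal protein genes (10.5%) and 890 of 6982 tested genes with a window (12.7%), and for 8.09% of all 27025 genes with a window. TGTGGT, a core of the RUNX motif, read on both strands, was present for 5 of the 42 members (11.9%), for 14.8% of the tested genes with a window and for 18.9% of all genes with one. A match is a description of letters and not of binding, and no test was made.

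The windows of the 3 members with an E-box and the largest rises are shown first, with the E-box in capitals, followed by that of Rrp9, the member with the largest rise, which has none. Each is written 5' to 3' on the gene's strand. The Mybbp1a window is at chr11:72441077-72441376 (plus strand), the Nop2 window at chr6:125131633-125131932 (plus strand), the Utp20 window at chr10:88826765-88827064 (minus strand) and the Rrp9 window at chr9:106477059-106477358 (plus strand). The E-box starts at base 291 of the Mybbp1a window, at base 191 of the Nop2 window and at base 288 of the Utp20 window, counted from 1 at the 5' end, so that in Mybbp1a and Utp20 it lies after the annotated start.
Mybbp1a: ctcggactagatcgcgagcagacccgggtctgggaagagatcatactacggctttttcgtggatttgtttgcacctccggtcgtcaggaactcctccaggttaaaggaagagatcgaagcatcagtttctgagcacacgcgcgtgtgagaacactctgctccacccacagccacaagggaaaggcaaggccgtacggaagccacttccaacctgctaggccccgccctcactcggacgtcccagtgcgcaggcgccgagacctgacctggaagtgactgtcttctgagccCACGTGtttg
Nop2: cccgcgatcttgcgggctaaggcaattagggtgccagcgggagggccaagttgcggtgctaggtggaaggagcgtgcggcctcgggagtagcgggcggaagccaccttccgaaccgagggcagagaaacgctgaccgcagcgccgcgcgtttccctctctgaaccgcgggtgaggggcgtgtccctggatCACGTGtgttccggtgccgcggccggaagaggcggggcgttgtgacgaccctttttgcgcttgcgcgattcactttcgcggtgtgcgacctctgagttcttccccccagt
Utp20: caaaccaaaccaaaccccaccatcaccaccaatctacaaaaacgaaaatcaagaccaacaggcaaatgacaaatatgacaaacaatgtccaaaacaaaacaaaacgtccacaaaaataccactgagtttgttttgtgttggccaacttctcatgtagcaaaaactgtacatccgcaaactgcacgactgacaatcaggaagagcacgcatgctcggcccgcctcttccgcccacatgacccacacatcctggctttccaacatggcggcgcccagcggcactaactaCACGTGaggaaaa
Rrp9: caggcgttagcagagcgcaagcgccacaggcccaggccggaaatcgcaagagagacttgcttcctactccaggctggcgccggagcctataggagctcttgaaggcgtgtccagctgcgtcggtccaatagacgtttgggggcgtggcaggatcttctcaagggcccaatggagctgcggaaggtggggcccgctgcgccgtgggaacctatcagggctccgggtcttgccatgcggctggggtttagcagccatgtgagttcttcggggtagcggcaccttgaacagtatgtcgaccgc

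The authors' deposited table gives their own test of each 4OHT library against its EtOH library. At a false discovery rate under 0.05, the authors' deposited table has 20 of the 49 listed members higher and 0 lower in Runx1 delta/delta, where 2.72% of all rows were higher. In the authors' deposited table for Runx1 delta/+, 14 members were higher and 0 lower, where 0.955% of all rows were higher. That test, Kal's Z-test, compares the shares of summed RPKM in 2 libraries. It therefore compares those libraries and not the conditions.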

How the data were processed

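Total RNA of 4 libraries had been sequenced. Per the labels' protocols, kits were TruSeq or NEBNext; the kit of each library, the aligner, the counting rule and the strand setting were not given in the sources used here. Genome build mm9 is named, per the submitters' processing notes. Per the file headers, the authors deposited RPKM per gene and library, and for each replicate number a fold of proportions (a signed score), a p-value and its FDR-corrected form by Kal's Z-test.

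Depth was recovered from RPKM steps: the worth of 1 read relative to another library came from the most shared ratio of low values, and totals from the value shared by 190 of 821 genes with a single GRCm38 transcript. Whole reads (tolerance 0.02) were recovered for 48 of 48 members; these are the smallest whole numbers possible.

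Limma 3.58.1 (R 4.3.3) was fitted on log2(RPKM + 1) for the 9595 genes averaging 1 RPKM or more, with treatment and genotype as terms, a trended prior, two-sided p-values and a Benjamini-Hochberg threshold of 0.05. This scale understates the change of low genes. There was 1 residual degree of freedom, and the prior contributed 4.37. Genotype, which equals the replicate number, entered the model as a factor named in the labels; same-numbered libraries deviated together (correlation across genes 0.664). The pairing therefore comes from the genotype in the labels. The fit was tested on simulated data. No test was made on lists.

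The members and lists were chosen with earlier results of these data known. Values in every library are given, in each role, for the 3 members with the largest change and the 1 with the smallest. They are also given for the 3 furthest apart between genotypes in each direction and for the most and least abundant. Values of Runx1, Flt3 and Myc are given too. Of other lists, up to 4 genes with the smallest p are named. Mnt, Mxd3, Mxd4, Baz2a, Sbds, Exosc10, Nop14, Bms1, Taf1d and the marker genes were named after their values were seen. Glyr1, which rose by 0.67 on the log2 scale, stands in the list of other large subunit genes although it is not known as one. Alternatives were the scaling, pseudocount, filter, genotype term, GC and length trend, and each library left out.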

Additional observations from a re-analysis of the deposited data

How the results depend on the processing

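The direction of the median change with 4OHT was positive for the members and for the other pathway genes under every alternative run. In the fit with no replicate block, that is without genotype, 117 genes rose and 116 fell with 4OHT, among them 1 member and 2 other pathway genes, and 0 genes, members included, were called between genotypes. With single libraries left out, which also leaves out that term, 0 to 126 genes rose and 3 to 137 fell; 0 to 1 members and 0 other pathway genes rose, and the members' median ran from 0.63 to 1.10. The sets of 3 libraries called 0 genes between genotypes, and the members' median there ran from -0.75 to 0.27, reversing without EtOH replicate 1 (0.27) and without 4OHT replicate 2 (0.12), where the arms hold unequal treatments and the lone library of an arm is assumed to vary like the others. In the same fits Ubtf (-0.01 with 4OHT, without EtOH replicate 2), Taf1d (0.21 and 0.22 with 4OHT, without 4OHT replicate 1 and without EtOH replicate 2) and Rrs1 (-0.35 and -0.004 between genotypes, without the same libraries) reversed, none of them called; their values ran up to 0.63 for Ubtf, down to -0.89 for Taf1d and up to 1.17 for Rrs1. With median-ratio scaling 1666 genes fell, among them 1 member (Taf1d) and 1 other pathway gene (Sbds); the medians were 0.63 for members and 0.41 for other pathway genes, and 984 genes, 1 member (Ubtf) among them, were higher in Runx1 delta/delta. With the GC and length trend removed, an alternative chosen after seeing the data, 1174 genes rose, among them 32 members and 35 other pathway genes (medians 0.62 and 0.42), and 149 genes were higher and 133 lower in Runx1 delta/delta, 3 of them members. Lower in Runx1 delta/delta were 1071 genes with RPKM rescaled without the erythroid list and 336 with a mean of at least 5 RPKM. With no filter on low values, 0 genes were higher and 0 lower between genotypes (1622 and 2284 at an unadjusted p under 0.05). The cause of these shifts was not tested. The library kits are unknown, so a kit difference between treatments cannot be told apart from 4OHT.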
